A study of Mus musculus with 864 samples.

Results

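Extracellular ATP reaches sensory neurons through P2X receptors, which are ATP-gated cation channels, and through P2Y receptors, which couple to G proteins. Ectonucleotidases on the cell surface then break the nucleotide down step by step, and the last step, from AMP to adenosine, is carried out by Nt5e (CD73) and by Acpp (prostatic acid phosphatase), which is a classical histochemical marker of small sensory neurons. Adenosine acts on its own receptors, among them the inhibitory A1 receptor Adora1. The genes described here were 5 P2X receptor genes (P2rx2, P2rx3, P2rx4, P2rx5 and P2rx6), the ADP receptor gene P2ry1, and both adenosine-making enzyme genes, Acpp and Nt5e. They were chosen by name and were 8 of 23281 genes in the table after copies of a gene at several loci had been summed.

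Single cells came from dorsal root ganglia, which hold the cell bodies of sensory neurons, at lumbar levels 4 to 6 of C57/Bl6 mice aged 6 to 8 weeks. The cells were picked by hand in 3 sessions, A and B at room temperature and C with cooling, and transcripts were counted by a tag at their 5′ end. Session A had male and female cells, session B male cells and session C male and female cells, which gave 5 preparations: A male, A female, B male, C male and C female. No animal is named in the labels, so these preparations serve as replicates. For class comparisons p-values measure how class differences vary between preparations, and for sessions the spread between preparations. Either may be technical, and session, cooling and depth cannot be told apart. Of 799 single-cell wells, 694 had 1000 or more genes and were kept, with a median of 15421, 15597, 198656.5, 1526077.5 and 2573228 reads per cell in the 5 preparations in that order.

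The kept cells were clustered without any purinergic gene, and clusters were named from other markers. Of the kept cells 21.9% were like the neurofilament-rich, mostly myelinated neurons (NF-like), 23.3% like the non-peptidergic nociceptors (NP-like), 6.92% (48 cells) like the peptidergic nociceptors (PEP-like) and 36.3% (252 cells) like the tyrosine hydroxylase neurons, which are low-threshold touch fibres (TH-like). A further 80 cells stayed unnamed, 45 of them in a cluster led by the collagen gene Col1a2. PEP-like cells reached the minimum of 3 cells in A male, B male and C male only, so every PEP-like mean has n = 3, while the other classes have n = 5. PEP-like cells also had the lowest median reads (57049) and genes (1912) per cell of the named classes. The other 3 classes had medians of 69009 to 236703.5 reads and 3420.5 to 5243 genes. Levels are means over the cells of a class and preparation of RPM, the reads of a gene scaled to 1000000 reads per well.

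Because reads start at the 5′ end of transcripts, the sequence just upstream of the annotated starts of the genes that led the NP-like and TH-like classes is shown. The 250 bases before each start were read from the RefSeq promoter table (build GRCm38.p6), which matched 5 of the 8 genes, namely P2rx4, P2rx6, P2ry1, Acpp and Nt5e. Capitals mark GGGCGG (the GC box) on either strand. Runs are given 5′ to 3′ on the gene's own strand, Acpp at chr9:104337723-104337972 (minus), Nt5e at chr9:88327359-88327608 (plus) and P2ry1 at chr3:61002535-61002784 (plus).
Acpp: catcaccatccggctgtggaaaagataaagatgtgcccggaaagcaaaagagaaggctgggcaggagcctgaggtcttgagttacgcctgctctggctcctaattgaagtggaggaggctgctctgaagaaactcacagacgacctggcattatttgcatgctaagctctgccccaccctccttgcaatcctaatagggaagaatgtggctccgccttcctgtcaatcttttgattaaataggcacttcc
Nt5e: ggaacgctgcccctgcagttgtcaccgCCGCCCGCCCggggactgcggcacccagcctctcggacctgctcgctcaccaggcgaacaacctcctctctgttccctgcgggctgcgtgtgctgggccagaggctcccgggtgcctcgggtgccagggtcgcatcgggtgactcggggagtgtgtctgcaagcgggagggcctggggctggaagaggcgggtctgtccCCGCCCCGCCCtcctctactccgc
P2ry1: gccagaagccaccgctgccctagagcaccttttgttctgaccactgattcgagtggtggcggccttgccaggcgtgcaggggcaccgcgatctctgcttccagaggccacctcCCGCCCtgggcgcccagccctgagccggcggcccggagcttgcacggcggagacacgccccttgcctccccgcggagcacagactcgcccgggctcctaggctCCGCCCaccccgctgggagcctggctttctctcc
The Nt5e run held 4 matches to the GC box, the P2ry1 run held 2 and the Acpp run held 0, where 32.7% of the 32851 promoters in the table held at least 1. The runs were 72% G and C for Nt5e, 70.8% for P2ry1 and 50.4% for Acpp, against a median of 52.4% over all promoters. The 2 enzyme genes thus had starts of unlike base composition. The RUNX core TGTGGT, found in 14.0% of all promoters on either strand, and TATAAA, found in 12.4%, were in none of these 3 runs. A match or its absence describes these letters only.

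P2rx3, the ATP-gated channel subunit long used as a marker of nociceptors, was highest in NP-like cells. Its mean level there was 599 RPM in A male, 512 in A female, 791 in B male, 271 in C male and 510 in C female, or 537 ± 187.4 RPM (SD, n = 5). In PEP-like cells it was 53.4, 185.6 and 86.9 RPM in A male, B male and C male. The 5 TH-like means ran from 5.64 to 73.1 RPM and the 5 NF-like means from 3.12 to 52.4. Every NP-like mean was above every mean of the other classes. The NP-like level exceeded the NF-like one by a log2 difference of 4.34 ± 0.41 (SE; adjusted p = 2.853e-08, limma with preparation as a block and Benjamini-Hochberg adjustment over 9897 genes). It exceeded the TH-like level by 3.94 ± 0.41 (adjusted p = 3.192e-07) and the PEP-like level by 2.70 ± 0.50 (adjusted p = 0.001036). All such differences are on the scale log2(mean RPM + 5), which understates changes of low genes. The NF-like level was below the PEP-like one by 1.64 on this scale (difference -1.64 ± 0.50, adjusted p = 0.03554), but this call was lost under 7 of 16 other settings, including edgeR on recovered reads (difference -0.63, adjusted p = 0.542). The edgeR difference is of summed reads without the added 5 RPM, so its size is on another scale. TH-like and NF-like levels were not told apart (0.40 ± 0.41, adjusted p = 0.6227).

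Within the NP-like cells, P2rx3 was read by cluster, and the clusters drew on different preparations. The mean over preparations was 649 ± 324 RPM (SD, n = 4) in the cluster led by Tmem233, 517 ± 162.9 (n = 5) in the one that held Mrgprd among its leading genes, and 407 ± 165.3 (n = 3) in the one led by the itch-related peptide genes Sst and Nppb. It was 262 ± 84.7 RPM (n = 2) in the cluster led by Nrn1l, whose cells all came from session C. In C male, which all 4 clusters shared, the order was another, with 519.7 RPM in the Sst cluster, 367 in the Mrgprd cluster, 207.3 in the Tmem233 cluster and 201.95 in the Nrn1l cluster. These C male means came from 4, 9, 4 and 23 cells in that order, so the order rests on few cells. Clusters were not tested against each other. With every cell thinned to 3000 reads, a P2rx3 read was found in 82.5% of the Tmem233 cluster, 70.6% of the Mrgprd cluster, 45.5% of the Nrn1l cluster and 38.1% of the Sst cluster. The same thinning left a P2rx3 read in 0 of 45 cells of the Col1a2 cluster, which allows a share of up to 6.67% of cells (3 counts; such limits cover counting error only). Without thinning, 11 of those 45 cells had one (24.4%), at a median of 148879 reads per cell, against 89.5% of NP-like cells at a median of 106948.5. Whether these reads came from the cells themselves was not tested.

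**Figure D1:**
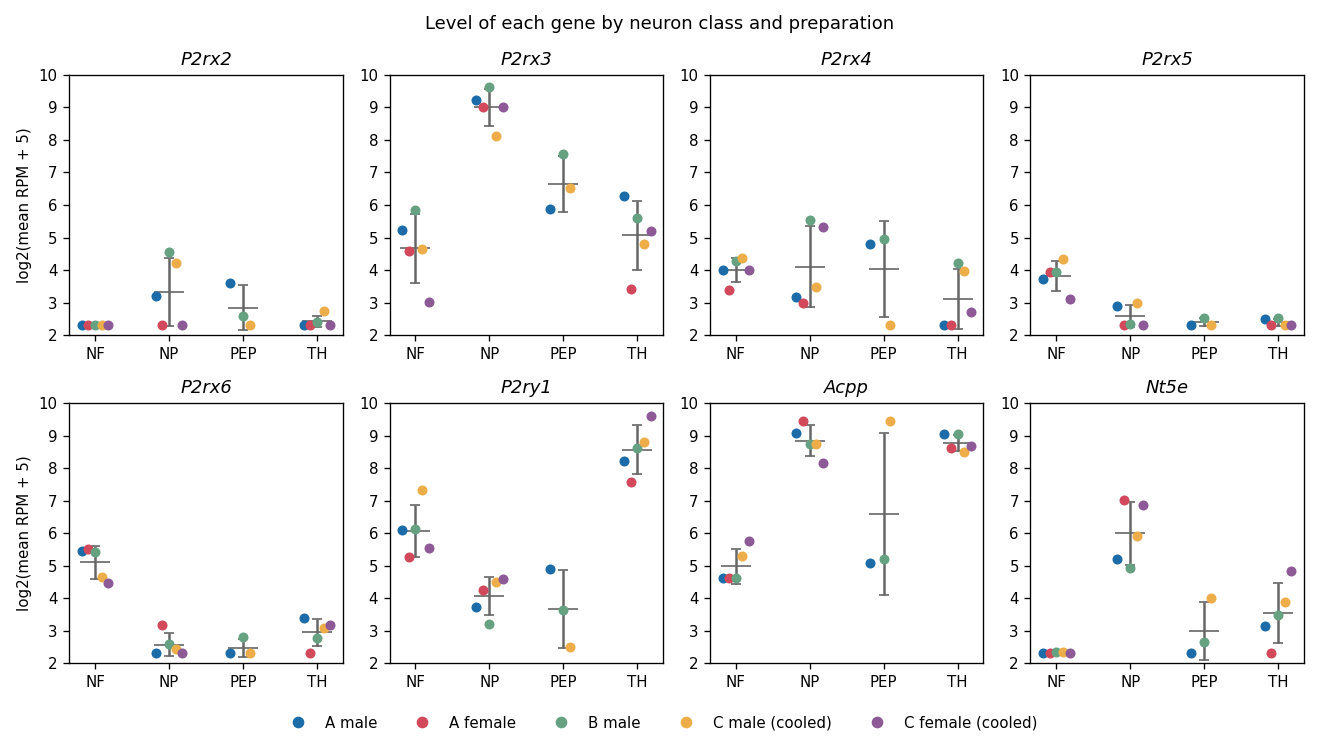
Level of each gene by neuron class, as log2(mean RPM + 5) on the y axis; points are preparations, the horizontal mark and bar are their mean and SD (n = 5, n = 3 for PEP). P2rx3, Acpp and Nt5e sat high in NP cells, P2ry1 and Acpp in TH cells and P2rx6 in NF cells; in PEP cells Acpp stood apart in C male.

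P2rx2, the subunit that can join P2rx3 in one channel, was low in every class and highest in one small NP-like cluster. Its NP-like means were 4.19, 0, 18.5, 13.6 and 0 RPM in the 5 preparations in order, and it was at 0 in every NF-like cell, which allows a share of up to 1.97%. In the Sst and Nppb cluster the level was 32.3 RPM in A male, 65.8 in B male and 28.9 in C male, with a read in 8 of 21 cells (38.1%). At 3000 reads per cell, 1 of the 21 cells (4.76%) held one. In the Tmem233, Mrgprd and Nrn1l clusters the mean was 0, 3.95 and 5.85 RPM. Median depth was 86806 reads in the Sst cluster, against 22239, 28930 and 3448441 in those 3. Of the 8 cells of the Sst cluster with a P2rx2 read, 7 also had a P2rx3 read and 8 an Acpp read. In the whole cluster 16 of 21 cells had a P2rx3 read and all 21 an Acpp read. The overlap with Acpp was thus fixed, and that with P2rx3 was near the share of the cluster. Over all kept cells, 17 of 22 cells with P2rx2 had P2rx3. Among NP-like cells it was 11 of 14, where 89.5% of the class had a P2rx3 read. P2rx2 did not reach the mean of 5 RPM that the test required, and without that filter it passed in none of the 6 class comparisons.

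P2rx4, a broadly expressed P2X subunit, was low in every class. Its mean was 18.1 ± 18.9 RPM (SD) in NP-like, 16.3 ± 14.2 in PEP-like, 11.4 ± 3.90 in NF-like and 5.19 ± 6.52 in TH-like cells. The ranges of all 4 classes overlapped, and none of the 6 comparisons passed (smallest adjusted p = 0.2962, NP-like against TH-like).

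P2rx5 and P2rx6, the genes of 2 further P2X subunits, were both highest in NF-like cells. P2rx6 stood at 38.9, 41.03, 37.6, 20.2 and 17.1 RPM in the NF-like cells of the 5 preparations. Its highest mean in the NP-like, TH-like and PEP-like classes was 5.51 RPM, in TH-like cells of A male, so the NF-like means did not overlap with those of these 3 classes. The unnamed cluster led by Bgn (35 cells) held 38.5 RPM in B male, within the NF-like range, and 1.67 and 0 RPM in C male and C female. The NF-like level was higher than the NP-like one (NP-like minus NF-like -2.53 ± 0.40, adjusted p = 4.649e-05), the TH-like one (TH-like minus NF-like -2.15 ± 0.40, adjusted p = 0.0005123) and the PEP-like one (NF-like minus PEP-like 2.65 ± 0.48, adjusted p = 0.0007793). With edgeR on summed recovered reads, a scale without the added 5 RPM, the TH-like difference was -3.55 and its adjusted p was 0.08129. P2rx6 cleared the filter of 5 RPM through its NF-like level, so these p-values are a description. P2rx6 was spread over 3 NF-like clusters, at 34.98 ± 7.16 RPM (n = 4) in the one led by Pcp4l1, 47.7 ± 39.1 (n = 4) in the one led by Pvalb, a proprioceptor marker, and 43.5 ± 24.5 (n = 3) in the one led by Accn3. In the fourth, led by LOC433944, Rab3b and Cadps2, it was 1.79 ± 3.58 RPM (n = 4).

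P2rx5 was lower, with NF-like means of 8.13, 10.5, 10.3, 15.4 and 3.60 RPM. The highest mean in the 3 other named classes was 2.98 RPM, in NP-like cells of C male, and the Bgn cluster held 10.6 RPM in B male. P2rx5 also missed the filter of 5 RPM. Without the filter (19174 genes tested) it passed against NP-like (NP-like minus NF-like -1.24 ± 0.18, adjusted p = 0.00111), TH-like (TH-like minus NF-like -1.42 ± 0.18, adjusted p = 0.0006544) and PEP-like cells (NF-like minus PEP-like 1.55 ± 0.22, adjusted p = 0.002749). By cluster it was highest in the Pvalb cells, at 13.5 RPM in A male, 33.2 in A female, 19.8 in B male and 26.4 in C male, and at 10.5 ± 2.60 (n = 4) in the Pcp4l1 cluster. P2rx5 and P2rx6 thus shared the Pvalb and Pcp4l1 clusters. At 3000 reads per cell, P2rx5 was found in 2.65% and P2rx6 in 6.62% of NF-like cells. By cluster, P2rx5 was then found in 0% of Pvalb, 5.26% of Pcp4l1 and 3.23% of Accn3 cells. Without thinning these shares were 43.2%, 28.1% and 16.1%. The thinned shares rest on 4 NF-like cells in all and did not follow the order of the cluster means.

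P2ry1, the ADP receptor, was highest in TH-like cells. Its TH-like level was 294 RPM in A male, 186.8 in A female, 391 in B male, 439 in C male and 772 in C female. NF-like cells followed with 64.2, 33.1, 64.4, 154.3 and 41.5 RPM, and NP-like cells had 8.38, 14.0, 4.23, 17.8 and 19.2. The 3 classes did not overlap with one another, and the PEP-like means of 24.9, 7.40 and 0.653 RPM lay near the NP-like ones. TH-like exceeded NF-like by 2.50 ± 0.46 (adjusted p = 0.0003797) and PEP-like by 4.95 ± 0.55 (adjusted p = 1.708e-06). NP-like was below TH-like (difference -4.51 ± 0.46, adjusted p = 2.06e-07) and below NF-like (-2.01 ± 0.46, adjusted p = 0.002301). NF-like was above PEP-like by 2.45 ± 0.55 (adjusted p = 0.004916), which was 1.42 without the C male preparation (adjusted p = 0.1608) and 0.97 at a clustering resolution of 1 (adjusted p = 0.1358). NP-like and PEP-like levels were not told apart (0.44 ± 0.55, adjusted p = 0.6788).

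The NF-like mean of P2ry1 was made of unlike clusters. In the cluster led by LOC433944, Rab3b and Cadps2 it was 260.3, 151.998, 269.2 and 153.5 RPM in A male, A female, B male and C male, and all 20 cells had a read. In the Pcp4l1 cluster it was 107.6 ± 86.6 RPM (n = 4). It was only 1.69 ± 1.80 RPM (n = 4) in the Pvalb cluster and 7.53 ± 6.48 (n = 3) in the Accn3 cluster. The LOC433944 cluster, highest of the 4 in P2ry1, held P2rx5 at 1.69 ± 3.37 RPM (n = 4). Among TH-like cells the cluster led by Kcnc2 and Zfp521 held 396, 821, 840 and 1166 RPM in A male, B male, C male and C female, and the Ceacam10 cluster 221.3 ± 45.6 (n = 3).

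**Figure D2:**
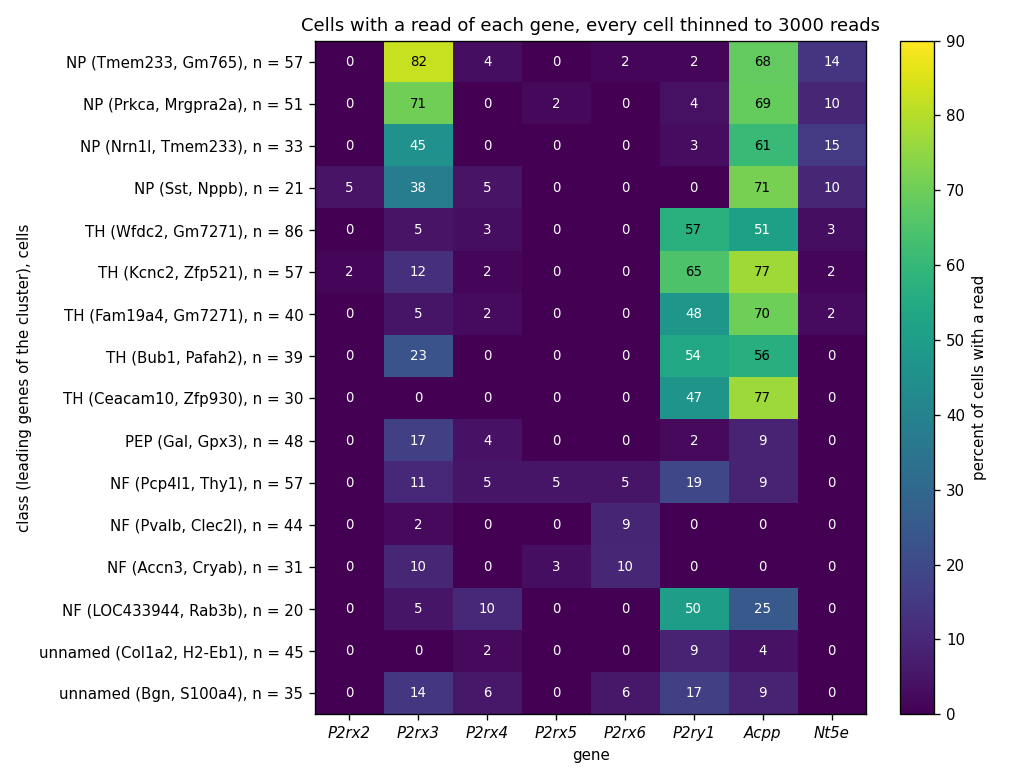
Percent of cells with a read of each gene (colour and printed value) in each cluster, every cell thinned to 3000 reads; rows are clusters with class, 2 leading genes and number of cells. P2rx3 fills the NP rows, P2ry1 the TH rows and 1 NF row, and Acpp both NP and TH rows.

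Acpp was high in both the NP-like and the TH-like class. In NP-like cells it was 530, 695, 426, 427 and 281.3 RPM in the 5 preparations, and in TH-like cells 524, 385, 519, 353 and 404. These values overlapped (difference 0.07 ± 0.59, adjusted p = 0.9727), with means of 472 ± 153.04 and 437 ± 79.2 RPM. NF-like cells had 19.5, 19.4, 19.5, 34.2 and 49.6 RPM, below every NP-like and TH-like mean. The NP-like level exceeded the NF-like one by 3.86 ± 0.59 (adjusted p = 0.0002626) and the TH-like level did so by 3.79 ± 0.59 (adjusted p = 0.0004811). The level stayed between 257 and 586 RPM in all 9 NP-like and TH-like clusters, as a mean over 1 to 5 preparations. The TH-like clusters led by Fam19a4 and Bub1 rest on 1 preparation each. The clusters led by Wfdc2 and Nrn1l rest on 2 each, both of session C. At 3000 reads per cell an Acpp read was found in 67.3% of NP-like, 63.9% of TH-like, 8.51% of PEP-like, 6.62% of NF-like and 4.44% of Col1a2 cells.

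PEP-like Acpp rested on 1 preparation. It was 28.9 RPM in A male, 31.96 in B male and 697 in C male. Of the 9 PEP-like cells of C male, 1 had 5225 RPM and another 941, while 5 were at 0. With C male, the NP-like and TH-like levels were above the PEP-like one by 2.24 ± 0.71 (adjusted p = 0.07235) and 2.18 ± 0.71 (adjusted p = 0.07114), neither past 0.05. Without C male the differences were 3.70 (adjusted p = 2.685e-05) and 3.68 (adjusted p = 1.987e-05). Among cells given the same class by clusterings of 2 separate sets of genes they were 4.40 and 4.33, and both passed.

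Nt5e was highest in NP-like cells and, unlike Acpp, low in TH-like cells. Its NP-like level was 31.6 RPM in A male, 126.02 in A female, 25.4 in B male, 55.6 in C male and 112.6 in C female. The TH-like means were 3.94, 0, 6.11, 9.92 and 23.6 RPM, all below every NP-like mean, and the highest NF-like mean was 0.138. NP-like exceeded NF-like by 3.65 ± 0.47 (adjusted p = 2.756e-06), PEP-like by 2.78 ± 0.57 (adjusted p = 0.002873) and TH-like by 2.45 ± 0.47 (adjusted p = 0.0008158). In sessions B and C alone the last difference was 1.84 with an adjusted p of 0.06407. Nt5e cleared the filter of 5 RPM through its NP-like level, so these p-values are a description. All 4 NP-like clusters carried it, at means of 56.5 to 84.96 RPM. A read was found in 46.9% of NP-like cells and in 1.97% of NF-like cells (3 cells).

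Of the 6 members that passed the filter, 5 passed the test between NP-like and NF-like cells, where 18.3% of all 9897 genes did. Between NP-like and PEP-like cells 2 of 6 passed (7.63% of all genes), between NP-like and TH-like cells 3 of 6 (10.1%), between TH-like and NF-like cells 3 of 6 (14.0%), between TH-like and PEP-like cells 1 of 6 (9.86%) and between NF-like and PEP-like cells 3 of 6 (10.7%). Nt5e and P2rx6 cleared the filter of a mean of 5 RPM through the 1 class in which they were high, so these counts are a description.

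**Figure D3:**
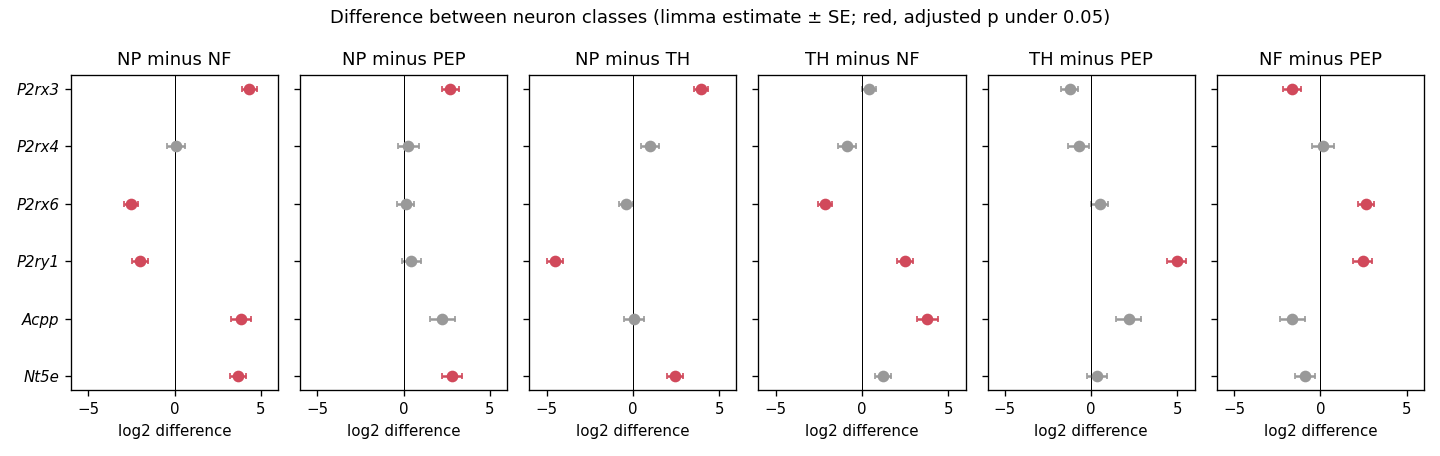
Differences between neuron classes for the 6 members that passed the filter, in log2(mean RPM + 5), as limma estimate ± SE; red points have an adjusted p under 0.05. P2rx3 lay 2.70 to 4.34 above every other class in NP cells, and P2ry1 2.50 to 4.95 above every other class in TH cells.

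Receptors and enzymes were then paired cell by cell. As deposited, 85.2% of NP-like cells (76.9% to 94.4% over the 5 preparations) held reads of both P2rx3 and Acpp, where 89.5% held P2rx3 and 95.1% held Acpp, and 70 held reads of P2rx3, Acpp and Nt5e. All 76 NP-like cells with Nt5e also had Acpp, and 8 NP-like cells had neither enzyme. Among TH-like cells 83.7% (53.8% to 93.75% over the preparations) held P2ry1 with Acpp, where 88.5% held P2ry1 and 92.5% held Acpp, while 18 held Acpp with Nt5e. Of the 48 PEP-like cells 20 came from A male, at a median of 6435.5 reads, and the class had the fewest genes per cell. Of these 48 cells, 39 had neither enzyme and 27 had no receptor read. Such joint shares rise with depth, so they were also compared at 3000 reads per cell.

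At that depth, P2rx3 was found in 78.9%, 77.8%, 73.9%, 50% and 63.6% of the NP-like cells with an Acpp read in the 5 preparations, and in 66.7%, 75%, 55.6%, 33.3% and 71.4% of those without one. The share was higher with Acpp in 4 of 5 preparations, by 8.46 percentage points on average (SD 10.9, exact two-sided sign-flip permutation p = 0.1875, adjusted p = 1 over 25 pairs). For P2ry1 and Acpp in TH-like cells the difference was 3.503 points (SD 17.4, higher in 3 of 5, exact permutation p = 0.6875, adjusted p = 1). P2rx3 was found in 75.3% of NP-like cells with Nt5e and 64.7% of those without, a difference of 10.7 points (SD 17.7, higher in 3 of 5, exact permutation p = 0.25, adjusted p = 1). Acpp was found in 59.3% of NP-like cells with Nt5e and 67.8% of those without, a difference of -8.43 points (SD 44.6, higher in 3 of 5, exact permutation p = 0.75, adjusted p = 1), with 0 of 3 against 23 of 29 cells in B male. None of the 25 pairs passed, but 5 preparations cannot give a p under 0.0625, so these tests could not have passed and do not show that detection was alike. Each of these 4 differences was smaller than its SD over preparations.

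For P2ry1 and P2rx4 with Acpp in NF-like cells, detection before thinning differed in the same direction in every preparation, and so did depth. Before thinning, P2ry1 was found in 60%, 42.9%, 96.4%, 92.3% and 75% of NF-like cells with an Acpp read and in 31.7%, 16.7%, 50%, 50% and 33.3% of those without. The share was higher in 5 of 5 preparations, by 36.98 points (SD 9.10, exact permutation p = 0.0625, the smallest that 5 preparations allow). For P2rx4 it was higher in 5 of 5 as well, by 38.6 points (SD 11.4, exact permutation p = 0.0625). The cells with an Acpp read were also the deeper ones in all 5 preparations, for instance a median of 898603 against 344969 reads in B male. At 3000 reads per cell only B male and C male had 3 or more cells on each side, with P2ry1 in 2 of 4 and 3 of 3 cells with Acpp against 6 of 40 and 2 of 18 without (exact permutation p = 0.5, the smallest possible). At 20000 reads per cell in sessions B and C the same 2 preparations gave P2ry1 in 92.9% with Acpp and 28.8% without, a difference of 64.03 points (SD 3.73, higher in both, exact permutation p = 0.5). For P2rx4 the difference was 12.6 points at 3000 reads (SD 21.4, higher in 1 of 2) and 22.99 at 20000 reads (SD 30.3, higher in both). The cluster led by LOC433944 held both genes, with Acpp at 58.7 ± 20.6 RPM (n = 4), and the Pvalb cluster held little of either, with Acpp at 6.87 ± 8.53 RPM (n = 4). The part of the cluster mix in this pairing was not tested.

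**Figure D4:**
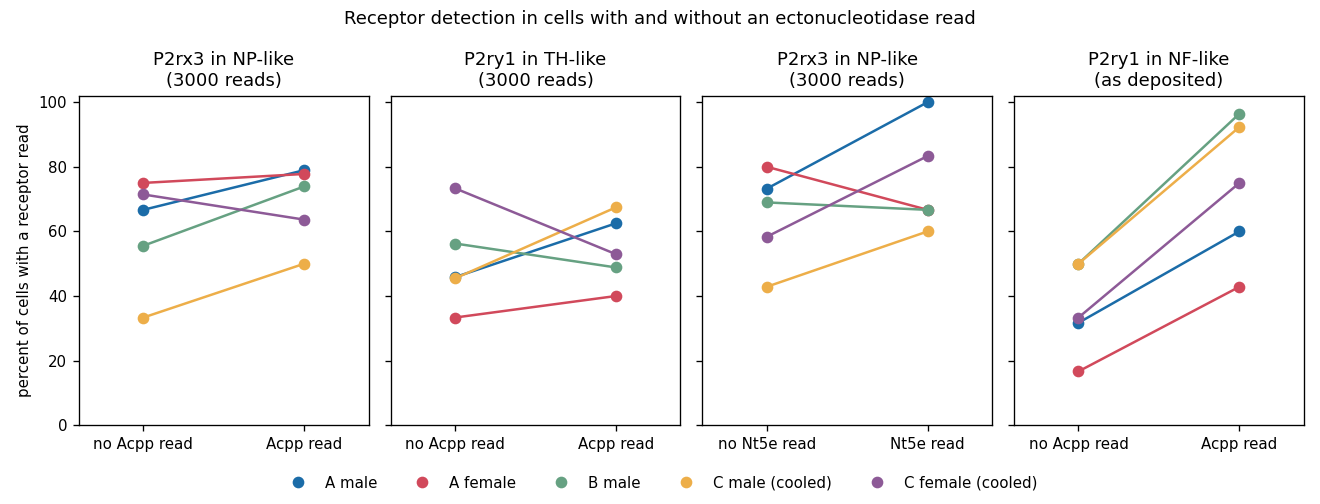
Percent of cells with a receptor read (y axis) among cells without and with a read of Acpp or Nt5e (x axis); each line is a preparation, and cells were thinned to 3000 reads except in the rightmost panel. Lines rise and fall in the first 3 panels and rise in all 5 preparations for P2ry1 in NF cells as deposited.

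Session made no difference that passed for any member. Averaged over the NP-like, NF-like and TH-like means of each preparation, P2ry1 was higher in the cooled session C by a log2 difference of 0.88 ± 0.31 (p = 0.01647, adjusted p = 0.1813, limma with sex as a covariate, 5 preparations). P2rx3 differed by -0.61 ± 0.36 (adjusted p = 0.3967) and Nt5e by 0.61 ± 0.34 (adjusted p = 0.365), and without C male the P2rx3 difference was 0.07. Of the 6 tested members 0 passed after adjustment and 1 had an unadjusted p under 0.05, where 1.06% of the 9897 genes passed after adjustment and 18.3% (1810 genes) had an unadjusted p under 0.05. Depth rose with session, so it cannot be told apart from cooling.

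The rest of the purinergic system was read from a list of 33 genes, of which 15 passed the filter. Adk, the kinase that turns adenosine back into AMP inside cells, was the clearest, at 781 ± 165.9 RPM (SD, n = 5) in NP-like cells against 151.97 ± 45.7 in NF-like, 71.5 ± 35.6 (n = 3) in PEP-like and 60.2 ± 12.6 in TH-like cells. The NP-like range of 526 to 968 RPM lay above every other mean. NP-like exceeded TH-like by 3.58 ± 0.25 (adjusted p = 4.831e-10), PEP-like by 3.48 ± 0.30 (adjusted p = 3.558e-08) and NF-like by 2.35 ± 0.25 (adjusted p = 1.235e-07). NP-like cells thus had a high level of Adk together with high Acpp, whereas TH-like cells had high Acpp and low Adk. TH-like was below NF-like in Adk (-1.24 ± 0.25, adjusted p = 0.0009117), and NF-like was above PEP-like (1.14 ± 0.30, adjusted p = 0.0145).

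Adora1, the A1 adenosine receptor gene, was lowest in PEP-like cells, at 16.3 ± 14.3 RPM, and at 76.8 ± 42.9 in NF-like, 89.7 ± 30.1 in NP-like and 101.3 ± 15.8 in TH-like cells. The PEP-like level was exceeded by NP-like (2.27 ± 0.49, adjusted p = 0.004742), TH-like (2.48 ± 0.49, adjusted p = 0.001794) and NF-like cells (1.97 ± 0.49, adjusted p = 0.01123). Panx2, of the pannexin channel family, was lowest in TH-like cells, with adjusted p of 0.0168 against NP-like (1.67), 0.004794 against NF-like (-1.91) and 0.03491 against PEP-like (-1.81). Panx1, a channel through which ATP can leave cells, was higher in NP-like than in TH-like cells (1.61, adjusted p = 0.02277). The nucleoside transporter gene Slc29a1 was higher in TH-like than in NF-like cells (1.89, adjusted p = 0.007391), and its relative Slc29a2 was lower (-1.71, adjusted p = 0.01801). Pnp, a purine nucleoside phosphorylase, was lower in TH-like (-2.90, adjusted p = 0.007583) and NF-like cells (-2.28, adjusted p = 0.03317) than in PEP-like cells. Entpd5, a nucleotidase, was higher in NP-like than in PEP-like cells (2.15, adjusted p = 0.02652). P2ry2, a receptor for UTP and ATP, was lower in NP-like than in TH-like cells (-1.53, adjusted p = 0.04288), a call lost under 10 of 16 other settings. Its mean was 16.5 RPM in TH-like, 6.73 in NF-like, 5.33 in PEP-like and 2.42 in NP-like cells. P2ry2 cleared the filter of 5 RPM through its TH-like level, so this p-value is a description. Calls were also lost under 9 settings for Panx1, 10 for Panx2 against PEP-like cells and 6 against NP-like cells, 8 for Entpd5, 5 and 9 for Pnp, 5 for Slc29a1, 6 of 14 for Slc29a2 and 3 to 6 for Adora1. Adk lost only the call between NF-like and PEP-like cells, under 4 settings, and Panx2 kept its call against NF-like cells under all 16. Of the 16, the setting of 5 or more cells per mean left all means as in the main fit, so it could not change a call.

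In counts, of the 15 listed genes tested, 1 was higher and 0 lower in NP-like than in NF-like cells (8.08% and 10.2% of all genes), with a median log2 difference of -0.19 against -0.02 over all genes. Against PEP-like cells 3 were higher and 0 lower in NP-like cells (4.65% and 2.98% of all genes; median 0.25, all genes 0.14), and against TH-like cells 3 were higher and 1 lower (4.35% and 5.78%; median 0.45, all genes -0.05). The 1 lower gene was P2ry2, so that count is a description. TH-like against NF-like cells gave 1 higher and 3 lower (6.52% and 7.44%; median -0.28, all genes 0.03), TH-like against PEP-like 1 higher and 2 lower (6.33% and 3.54%; median -0.10, all genes 0.20) and NF-like against PEP-like 2 higher and 1 lower (6.99% and 3.71%; median 0.32, all genes 0.20). The remaining 6 genes that passed the filter were called in no comparison, among them the ATP-degrading Entpd3.

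The genes whose level over the 18 class-by-preparation means was most like each member were ranked by Pearson correlation of log2(mean RPM + 5) among 9896 others, as a description, since the means share classes and libraries. For P2rx3 they were Kcnmb1 (r = 0.911), Dgkg (0.894), Cd82 (0.891), Nnat (0.887) and Cd55 (0.880). Acpp was followed by Tmod2 (0.923), Arpc5 (0.920), Kcnip4 (0.895), Rasgrp1 (0.886) and Tmem45b (0.881). For Nt5e the list held Ctxn3 (0.935), Gng2 (0.934), Tmem164 (0.907), the lysophosphatidic acid receptor gene Lpar3 (0.901) and Chst14 (0.894). P2ry1 lay closest to Tmem132e (0.952), the potassium channel gene Kcnj12 (0.924), Mmp17 (0.896), the netrin receptor gene Unc5a (0.894) and Gnb3 (0.892). P2rx6 had LOC433944 (0.955), the serotonin receptor gene Htr7 (0.954), Edil3 (0.946), Pls1 (0.941) and Vstm2b (0.933). This likeness is of class means, and the NF-like cluster led by LOC433944 had the lowest P2rx6 of the NF-like clusters, at 1.79 RPM. The likeness for P2rx4 was weaker, led by 1700052N19Rik (0.800), Bsdc1 (0.771), 2310047M10Rik (0.767), Hspd1 (0.760) and Fam118a (0.743).

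In the 32 control wells that held no cell, a read was found in 1 well for P2rx3, 1 for Acpp, 1 for Nt5e and 3 for P2ry1, and in 0 for the other 4 genes. Among all 694 kept cells the shares with a read were 48.7% for P2rx3, 71.6% for Acpp, 15.3% for Nt5e and 55.9% for P2ry1. Control wells had a median of 1619.5 reads, against medians of 15421 to 2573228 in the kept cells by preparation. The shares are thus not at matched depth and do not show how low the background was. Of the control columns, 4 held a score of no known scale.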

How the data were processed

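The authors mapped reads with Bowtie (version not given in the sources used here) to mouse build mm9, per the submitters' processing notes, and deposited RPM, reads scaled to 1000000, per gene and well. They counted no molecular identifiers that the table shows, so values are shares of reads. The authors' deposited columns of 3 empty wells and 1 medium well hold whole numbers only, and their score has no known scale. The RPM steps gave whole reads in 841 of 864 columns, with 99.5% of values whole within 0.1, and not claimed in 19. No deposited column was left unmapped.

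Copies of 1 gene at different loci were added up, and repeats were left out. Values were log-transformed (pseudocount 100 RPM) and centred by session, and 600 variable genes without purinergic ones, clipped at 6 SD, gave 15 components, 15 neighbours and Leiden clusters (leidenalg 0.10.2, resolution 2). A cluster took a class with at least 3 markers raised by log2 0.5 within sessions (pseudocount 20 RPM). The within-session naming was chosen after seeing that clusters led by 1 session were misnamed otherwise. No doublet caller was run, and 33 wells labelled as more than 1 cell were left out.

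Means per class and preparation (3 or more cells) were tested with limma 3.58.1 on log2(mean RPM + 5) for genes averaging at least 5 RPM, with preparation as a block, and Benjamini-Hochberg adjustment at 0.05. Genes other than the purinergic ones were tested with classes from a clustering of a separate set of genes that left them out. Preparations pair the classes because their cells were picked together: the deviations of classes of 1 preparation correlated at 0.107 to 0.404 in all 15 pairs. Pairing shares used cells thinned to 3000 reads and exact sign-flip permutation. Alternatives were edgeR 4.0.16 (TMM, and size factors of DESeq2 1.42.0) on the recovered reads, other pseudocounts (1 and 20 RPM), no filter, no block, each preparation left out, sessions B and C alone, wells with 3000 or more reads, cells with like classes from both gene sets, resolution 1, and 5 or more cells. The last gave the same means as the main fit, and 692 of the 694 kept cells had 3000 or more reads. The limma test was tried on simulated data for NP-like against NF-like cells; the other tests were not. Named genes were the 8 members, listed genes past the threshold and the 5 genes most like each member. The members and lists were chosen with earlier results of these data known.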

Additional observations from a re-analysis of the deposited data

Results flagged for a closer look

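The NF-like mean of P2ry1 in C male, 154.3 RPM, stood apart from the other preparations (33.1 to 64.4 RPM). So did P2rx6 in NP-like cells of A female (4.02 RPM) and P2rx2 in TH-like cells of C male (1.65 RPM), both near 0 elsewhere. These were 3 of 23 groups of 5 preparations examined, and chance flags about 1 in 20 groups of normally distributed values. That rate does not hold for groups with preparations at 0. The P2rx2 and P2rx6 groups are such groups, and each flagged value there came from 1 cell with a read. The 33 wells labelled as more than 1 cell, used in no comparison, held a read of Acpp in 60.6%, P2ry1 in 42.4%, P2rx3 in 30.3%, P2rx4 in 21.2%, P2rx6 in 18.2%, P2rx5 in 15.2% and Nt5e in 9.09%, each above its share of control wells (at most 9.38%, for P2ry1), and of P2rx2 in 0 wells. Their median depth was 3663083 reads against 1619.5 in the control wells, so the shares are not comparable at matched depth.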

How the results depend on the processing

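Of 130 alternative values of the member counts and pairing differences, 120 were alike, and the exceptions follow. A count was alike if within 1.5 times of the reported one, and a pairing difference if it kept its sign. With so few preparations no pairing difference could pass the threshold in any setting. Smaller changes of counts were taken as alike, such as from 2 to 3 between NP-like and PEP-like cells with edgeR, and from 3 to 2 between NP-like and TH-like cells in sessions B and C alone. Members called between TH-like and PEP-like cells went from 1 to 2 without the replicate block, at resolution 1 and with edgeR under either scaling, to 3 among cells with like classes from both gene sets, and were 1 to 2 over the left-out preparations; Acpp was the added gene without C male. Between NF-like and PEP-like cells the count was 1 to 3 over the left-out preparations. The P2rx3 and Acpp difference in NP-like cells was -11.7 points when 2 or more reads counted as detection, and the P2ry1 and Acpp difference in TH-like cells was then -0.0345 and ran from -1.12 to 9.48 over the left-out preparations. Reversed estimates, none of them called, were P2rx3 in TH-like against NF-like cells without C female (-0.048; up to 0.796 over the left-out preparations), Acpp in NP-like against TH-like cells without A female (-0.128; up to 0.213) and in sessions B and C alone (-0.175), Acpp in NF-like against PEP-like cells with like classes from both gene sets (0.594), and P2rx3 by session without C male (0.073; -1.13 to 0.073 over the left-out preparations). The cause was not tested. Genes called over all genes fell by over 1.5 times in some settings, to 1069 (from 1812, NP-like against NF-like), 503 (from 1003, NP-like against TH-like) and 681 (from 1381, TH-like against NF-like) in sessions B and C alone, to 404 (from 755, NP-like against PEP-like) without B male, and to 370 (from 976, TH-like against PEP-like) and 472 (from 1059, NF-like against PEP-like) with edgeR and TMM. The genes called by session, 1.06% of those tested as reported, were 0 in 4 settings and 349 without B male. The NF-like pairing could not be computed at 3000 reads without B male or without C male. At the median of 15421 reads per cell in A male and 15597 in A female, low levels rest on few reads.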

Other observations

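In the 45 cells of the cluster led by Col1a2, Entpd2, an ATP-degrading ectoenzyme known from glia, was at 192.996 ± 190 RPM (SD, n = 3 preparations), in 6 of 45 cells, against means of 0.998 to 3.93 RPM in the 4 neuron classes. That share of 13.3% was near the 14.3% of the Bgn cluster (5 of 35 cells, 24.5 ± 18.1 RPM). The neuron classes had a read in 4.17% to 7.94% of cells. P2ry14, a receptor for UDP-sugars, averaged 337 ± 549 RPM from 2 of 45 cells, and P2rx7 88.8 ± 153.7 RPM from 1 cell, so these means rest on 1 or 2 cells. Reads of both were at least as frequent in some neuron classes, with P2ry14 in 7.24% of NF-like and P2rx7 in 6.25% of PEP-like cells, against 4.44% and 2.22% in this cluster. The neuronal ectonucleotidase gene Entpd3 was at 0.496 ± 0.436 RPM in the same cells. No test was run on these values.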
